A study of Mus musculus with 11 samples.

Results

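The genes described here mark or shape the blood vessels of the gastrocnemius, a mixed hindlimb muscle of the mouse. They are 37 listed genes of 55487 in the deposited gene tables, matched by symbol to their Ensembl rows: 21 endothelial genes, 9 genes of mural cells (pericytes and vascular smooth muscle) and 7 angiogenic genes. Of the 37, 29 had enough counts to be tested, namely 18 endothelial, 8 mural and 3 angiogenic genes. The series compared muscle of 4 mice lacking both Raptor and mTOR in myofibres, 3 mice lacking Raptor alone and 4 wild-type mice. Both deletions were inducible: mice with floxed Raptor (HSA-Cre-Raptor fl/fl), and for the double knockout also floxed mTOR (mTOR fl/fl), carried a tamoxifen-dependent Cre recombinase, a fusion with a mutated estrogen receptor domain, under the promoter of human skeletal actin (HSA). That promoter is active in myofibres and not in vessel cells, so no deletion was designed in the vessel cells themselves. All 3 groups, wild type included, were labelled as given tamoxifen, which began at 3 months of age, was fed in chow for 7 weeks, and was followed by collection 7 months after it began. Whether the wild-type mice carried Cre or a floxed allele is not given in the sources used here. Each library is 1 mouse, numbered within its group in the order of the sample records, and was made from 450 ng of total RNA with a kit that reads only the 3' ends of polyadenylated transcripts.

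In skeletal muscle every fibre is wrapped by capillaries, whose endothelial cells rest on a basement membrane shared with pericytes, while arterioles carry a coat of smooth muscle. Myofibres are themselves a main source of the growth factor VEGF-A, which binds the receptor VEGFR2 (gene Kdr) on endothelial cells and is limited by the decoy receptor VEGFR1 (Flt1). Angiopoietins act on the receptor Tie2 (Tek), apelin on its receptor Aplnr, and endothelial PDGF-B recruits pericytes through Pdgfrb.

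Rptor, the gene for Raptor, read 5.37, 5.12, 4.77 and 4.07 CPM (read counts scaled to library size by the TMM method) in the double knockout, 3.85, 4.87 and 4.99 in the Raptor knockout and 10.6, 9.65, 10.5 and 8.57 in wild type. Mtor read 31.8 to 39.5 CPM in the double knockout, 18.2 to 22.6 in the Raptor knockout and 15.2 to 28.2 in wild type. It was called higher in the double knockout (1.71-fold, adjusted p = 0.0053), which does not match a loss of Mtor transcript. Where the floxed part lies relative to these 3' tags was not examined, and the counts therefore do not check the label of Mtor deletion. Library totals ran from 2791339 to 6328533 counts, and double-knockout replicates 3 and 4 were in the smaller sequencing run. Xist, which is transcribed from an inactive X chromosome, was present in double-knockout replicates 1 to 3 and wild-type replicate 3 (95.6 to 208 CPM), and the Y-linked Ddx3y in the other 7 libraries. Wild-type replicate 4 stood apart for many of the vessel genes, and its values are set out below before the results that rest on it.

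Most vessel genes did not pass the test against wild type. In the double knockout, Vegfa, Ly6c1 and Acta2 rose and Mcam fell, and in the Raptor knockout Vegfa and Pdgfrb rose. Between the double knockout and the Raptor knockout, no tested vessel gene passed with all libraries and the filter on low counts. A gene was called when its p from edgeR's quasi-likelihood test, adjusted over all 10505 genes tested, was under 0.05. Of the 29 tested vessel genes, 3 were called higher and 1 lower in the double knockout, where 13% of all tested genes were called higher and 13.7% lower. The Raptor knockout had 2 called, both higher, beside 8.73% higher and 9.43% lower of all tested genes. The share of vessel genes called was thus no larger than the share of all genes in either comparison. The median log2 fold change of the 29 genes was 0.16 in the double knockout and 0.20 in the Raptor knockout, against 0.02 and 0.00 for all tested genes. By class, the median log2 fold change in the double knockout was 0.12 for endothelial, 0.16 for angiogenic and 0.38 for mural genes. In the Raptor knockout it was 0.02 for endothelial, 0.02 for angiogenic and 0.25 for mural genes. Groups whose libraries did not overlap at all were found for 3 of the 29 tested vessel genes in the double knockout against wild type and 3 of the 29 in the Raptor knockout against wild type, where 26.8% and 27.3% of all tested genes showed this. Both comparisons use the same 4 wild-type libraries, so their values are not independent of each other. In whole muscle, fewer cells of a type and less RNA per cell cannot be told apart.

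**Figure D1:**
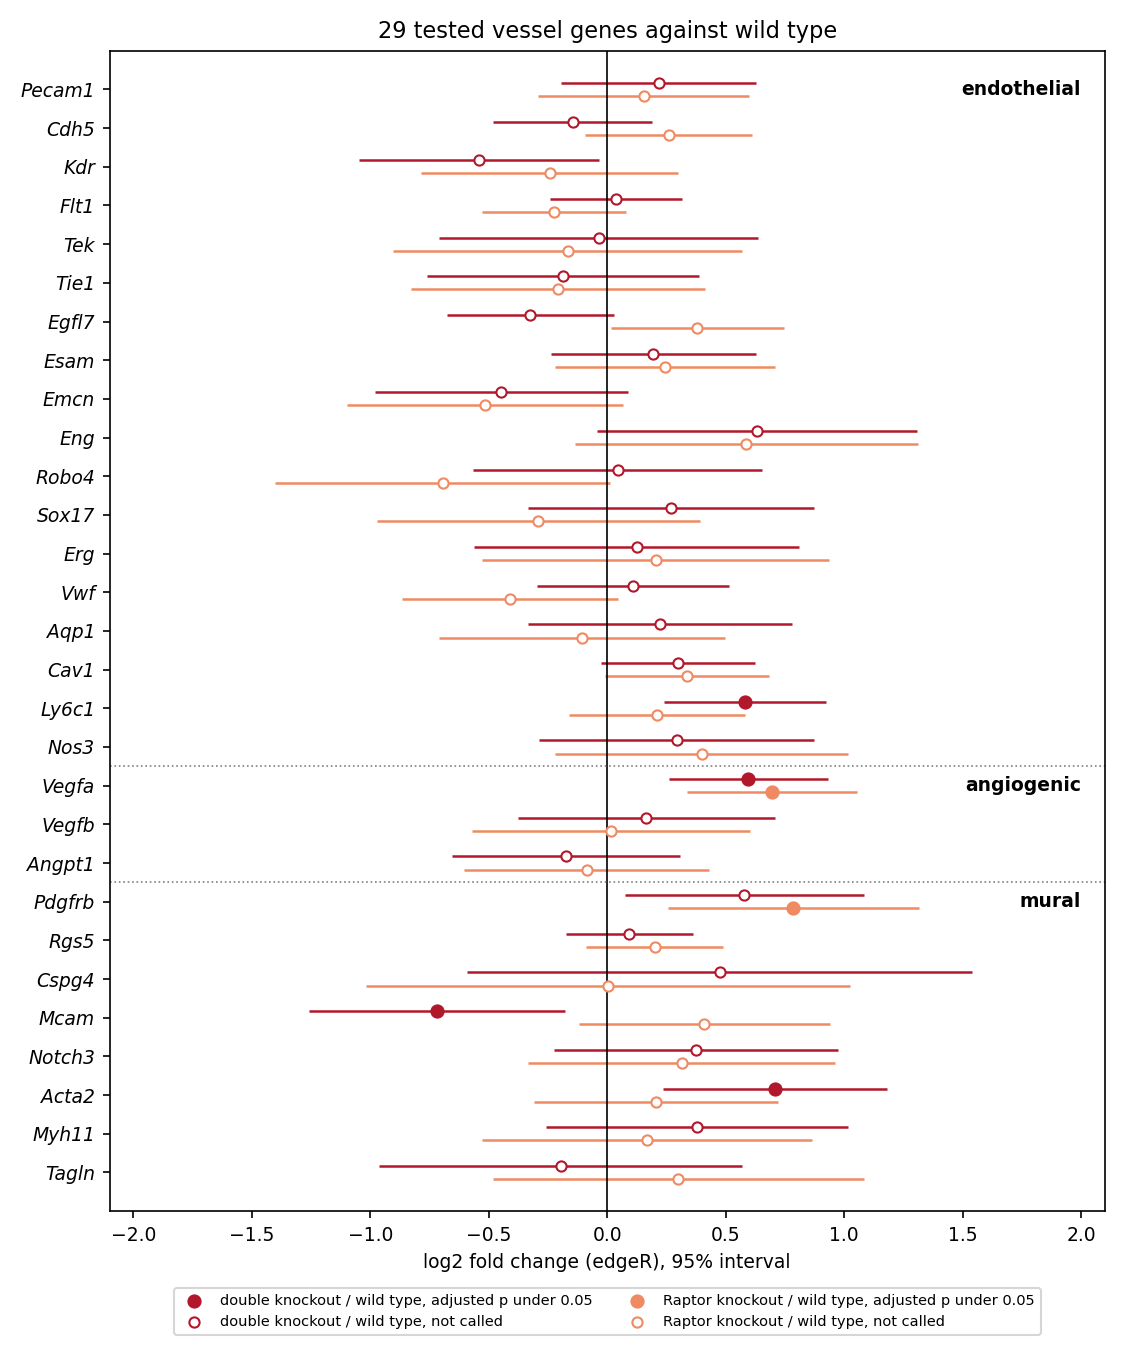
Log2 fold change of each tested vessel gene in the double knockout (dark red) and the Raptor knockout (orange) against wild type, with 95% intervals from edgeR; filled points were called at an adjusted p under 0.05. The filled points are Vegfa, Ly6c1, Acta2 and Mcam for the double knockout and Vegfa and Pdgfrb for the Raptor knockout, and most other intervals span 0.

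Among the ligands, Vegfa, which encodes VEGF-A, was higher than in every wild-type library in all 7 knockout libraries. It read 97.7, 101, 88.5 and 133 CPM in the double knockout, 110, 119 and 108 in the Raptor knockout, and 75.7, 85.8, 57.2 and 60.2 in wild type. The lowest double-knockout library, replicate 3, lay just above the highest wild-type library, replicate 2. The log2 fold change was 0.60 (SE 0.16, adjusted p = 0.011) in the double knockout, or 1.51-fold, and 0.69 (SE 0.17, adjusted p = 0.0091) in the Raptor knockout, or 1.62-fold. Between the double knockout and the Raptor knockout the difference was -0.10, with a 95% interval from -0.46 to 0.26. With presence of Xist as a covariate the log2 fold changes were 0.80 (adjusted p = 0.0016) and 0.60 (adjusted p = 0.011). In libraries without Xist alone, where the double knockout has a single library, they were 0.83 (adjusted p = 0.085) and 0.58 (adjusted p = 0.059). The double-knockout call was also lost without the smaller run (0.51, adjusted p = 0.068) and with run as a covariate (0.52, adjusted p = 0.076).

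Vegfa lies on chromosome 17 (46016993 to 46032369, minus strand, GRCm38), and the bases around its first RefSeq start site are shown because it is the vessel gene called in both comparisons. The window ends after the start site and holds 2 copies of GGGCGG (capitals), the GC box bound by Sp1-type factors, searched on both strands. Its coordinates are chr17:46032328-46032627 on the minus strand of GRCm38.p6.
Vegfa: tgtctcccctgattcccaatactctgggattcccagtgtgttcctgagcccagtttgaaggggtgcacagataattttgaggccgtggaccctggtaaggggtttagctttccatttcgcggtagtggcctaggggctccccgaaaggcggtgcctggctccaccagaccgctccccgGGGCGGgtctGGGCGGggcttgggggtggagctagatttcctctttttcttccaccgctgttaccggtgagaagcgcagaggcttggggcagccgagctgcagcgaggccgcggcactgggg
GC boxes were found in 35.7% of all 32851 RefSeq promoter windows of the same length. Counted by gene, with a match in any of a gene's windows, they were found in 15 of the 24 vessel genes that had a window and in 38.2% of all 27025 genes. The hypoxia response core ACGTG or GCGTG was not among these letters. A second Vegfa start site in the same table had 2 matches to it, a motif found in 11 of the 24 vessel genes with a window and in 46.7% of all genes.

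Vegfb, a relative of VEGF-A that binds VEGFR1, read 94.8, 130, 95.9 and 124 CPM in the double knockout, 99.0, 103 and 99.8 in the Raptor knockout and 71.8, 81.5, 71.1 and 173 in wild type. A single wild-type library, replicate 4, was above all others, and the other 3 wild-type libraries were below every knockout library. With all libraries its log2 fold change was 0.16 (SE 0.25, adjusted p = 0.67) in the double knockout and 0.02 (SE 0.27, adjusted p = 0.98) in the Raptor knockout. Without wild-type replicate 4 these were 0.58 (adjusted p = 0.0029) and 0.43 (adjusted p = 0.033). Leaving out that library also raised the calls among all tested genes. In the double knockout they went from 1367 higher and 1435 lower to 1655 and 1689. In the Raptor knockout they went from 917 and 991 to 1203 and 1210. Angpt1, the ligand that activates Tie2, averaged 8.84 ± 2.47 CPM in the double knockout, 9.41 ± 1.03 in the Raptor knockout and 10.1 ± 2.16 in wild type (SD, n = 4, 3 and 4), and the libraries of the 3 groups overlapped.

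Vegfc, the ligand of the lymphatic receptor VEGFR3, and Angpt2, which competes with Angpt1 at Tie2, had too few counts to be tested. Vegfc averaged 0.849 CPM in the double knockout, 0.720 in the Raptor knockout and 0.901 in wild type, and Angpt2 averaged 1.67, 1.88 and 2.14 CPM in the same order. Apln, the gene for apelin, was also below the filter, with 6, 4, 1 and 10 counts in the double knockout, 7, 7 and 11 in the Raptor knockout and 3, 1, 3 and 2 in wild type. Every Raptor-knockout library had more Apln counts than every wild-type library, while the double-knockout libraries spread over both. When genes with low counts were kept in the fit, Apln had a log2 fold change of 2.05 (SE 0.65, adjusted p = 0.025) in the Raptor knockout, where 3.77% of the 21981 genes in that fit were called higher. In the double knockout the same fit gave 1.47 (SE 0.65, adjusted p = 0.14). Counts of this size rest on few molecules per library. The apelin receptor Aplnr read 0.632, 1.35, 0.265 and 0.872 CPM in the double knockout, 1.79, 2.98 and 2.35 in the Raptor knockout and 0.690, 1.43, 0.493 and 0.451 in wild type. It too was highest in the Raptor knockout, but in the fit with no filter its log2 fold change against wild type of 1.66 (SE 0.63) had an adjusted p of 0.084. It was called higher in the Raptor knockout by limma on log2 of the deposited TPM plus 1 (1.35, adjusted p = 0.025) or plus 0.1 (1.80, adjusted p = 0.032), where 9.94% and 9.89% of all genes tested that way were called higher.

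**Figure D2:**
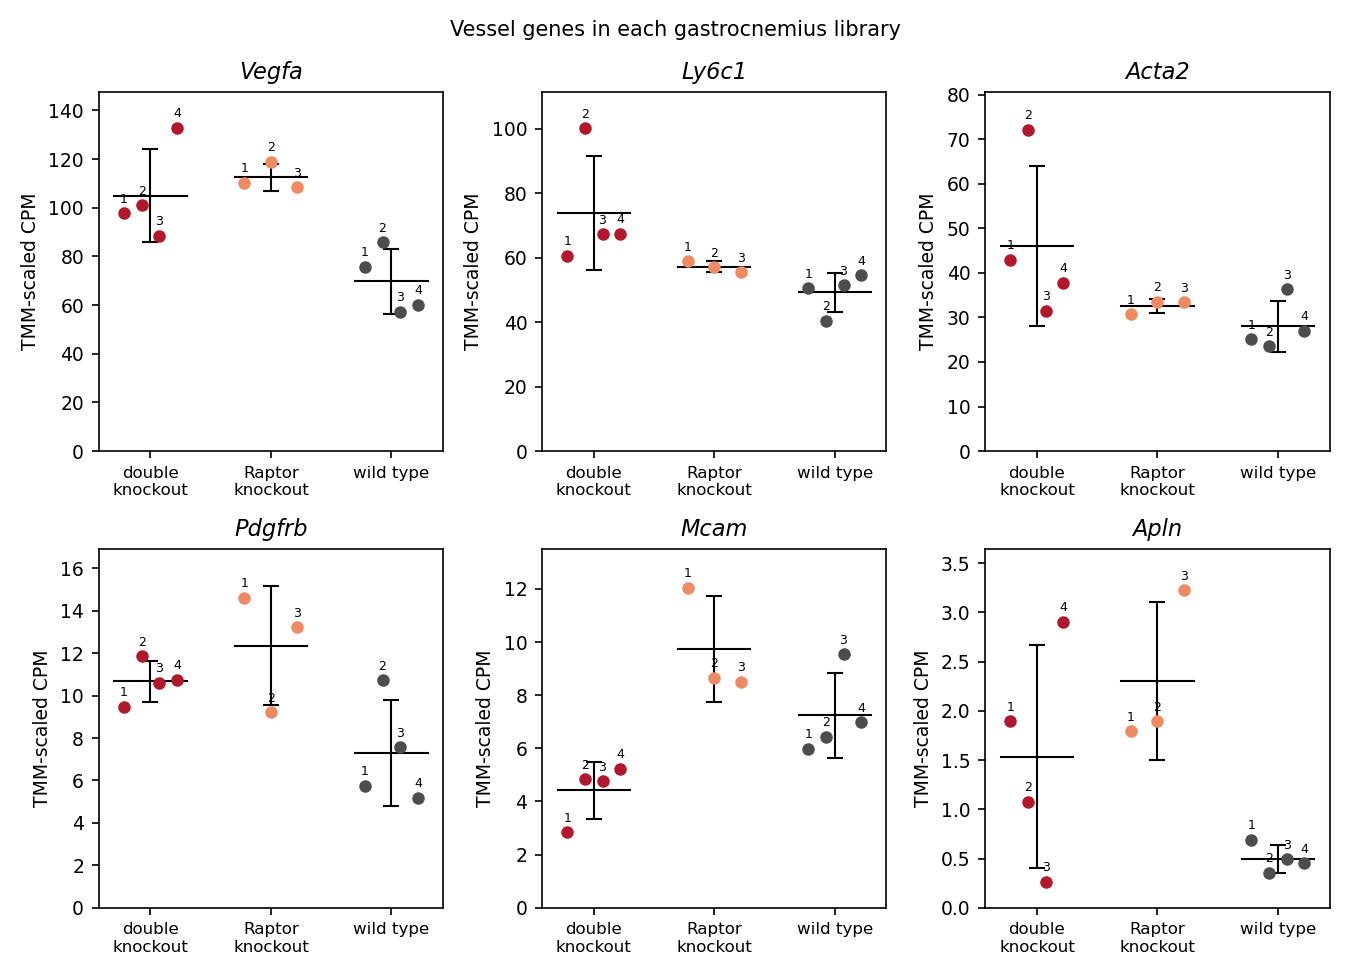
TMM-scaled CPM of the 5 called vessel genes and of Apln in each library, with replicate numbers; lines and bars are the mean and SD of each group. All knockout points of Vegfa lie above all wild-type points, the high Ly6c1 and Acta2 points at 100 and 72.2 CPM are double-knockout replicate 2, and all 4 double-knockout points of Mcam lie below the others.

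No receptor of the endothelium was called with all libraries and the filter on low counts. Kdr, which encodes VEGFR2, read 33.5, 28.0, 33.9 and 44.2 CPM in the double knockout, 41.3, 52.2 and 34.9 in the Raptor knockout and 50.6, 41.1, 32.9 and 78.2 in wild type. Its log2 fold change in the double knockout was -0.54 (SE 0.24, adjusted p = 0.11), and the highest wild-type value was that of replicate 4. Kdr was called lower without wild-type replicate 3 (-0.72, adjusted p = 0.028) and when genes with low counts were kept (-0.58, adjusted p = 0.042). Its value was -0.25 (adjusted p = 0.33) without wild-type replicate 4 and -0.21 (adjusted p = 0.58) with Xist as a covariate. Flt1, the decoy receptor, averaged 56.3 ± 5.19 CPM in the double knockout, 46.9 ± 5.85 in the Raptor knockout and 54.9 ± 2.63 in wild type. Its interval against wild type ran from -0.24 to 0.31 in the double knockout, among the narrowest of the vessel genes. Flt4, the gene for VEGFR3, was below the filter, at 1.77, 1.95 and 2.26 CPM on average in the double knockout, the Raptor knockout and wild type.

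The receptor Tek averaged 4.27 ± 1.86 CPM in the double knockout, 3.88 ± 0.697 in the Raptor knockout and 4.37 ± 0.734 in wild type, and its partner receptor Tie1 averaged 5.35 ± 1.75, 5.24 ± 0.728 and 6.03 ± 1.6 CPM. Eng, which encodes the TGF-beta co-receptor endoglin, averaged 5.04 ± 1.05 CPM in the double knockout, 4.85 ± 1.71 in the Raptor knockout and 3.29 ± 1.2 in wild type. Its log2 fold changes of 0.63 (SE 0.32) and 0.59 (SE 0.34) had adjusted p of 0.16 and 0.25. Robo4, an endothelial guidance receptor that steadies vessels, averaged 5.63 ± 1.55 CPM in the double knockout, 3.35 ± 0.877 in the Raptor knockout and 5.34 ± 1.82 in wild type, with a log2 fold change of -0.69 (SE 0.33, adjusted p = 0.17) in the Raptor knockout.

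Among the listed endothelial genes, no junction or surface gene but Ly6c1, described below, was called with all libraries and TMM scaling. Pecam1, which encodes CD31, the usual histological marker of capillaries, read 39.5, 52.0, 33.4 and 50.3 CPM in the double knockout, 42.8, 43.6 and 39.3 in the Raptor knockout and 34.1, 28.2, 34.2 and 53.6 in wild type. Wild-type replicate 4 was again the highest library, and without it the double knockout was called higher, with a log2 fold change of 0.44 (adjusted p = 0.047), against 0.22 (adjusted p = 0.45) with all libraries. Esam, a junction adhesion molecule, averaged 27.3 ± 4.78 CPM in the double knockout, 28.3 ± 3.35 in the Raptor knockout and 23.9 ± 7.81 in wild type, with wild-type replicate 4 at 35.6 CPM. Without that library Esam was called higher in the double knockout (0.45, adjusted p = 0.042) and in the Raptor knockout (0.50, adjusted p = 0.045).

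Cdh5, the gene for VE-cadherin, averaged 16.8 ± 1.41 CPM in the double knockout, 22.2 ± 3.65 in the Raptor knockout and 18.5 ± 1.26 in wild type. Its log2 fold change was -0.15 (SE 0.16) in the double knockout and 0.26 (SE 0.17) in the Raptor knockout, neither of them called. Emcn, the capillary and venous sialomucin endomucin, averaged 8.34 ± 2.0, 7.99 ± 1.75 and 11.5 ± 3.55 CPM in the double knockout, the Raptor knockout and wild type, and Vwf, the gene for von Willebrand factor, averaged 9.23 ± 0.530, 6.40 ± 1.21 and 8.47 ± 0.929 CPM in the same order. The log2 fold changes of Emcn were -0.45 (adjusted p = 0.21) in the double knockout and -0.52 (adjusted p = 0.21) in the Raptor knockout. Cldn5, a tight-junction claudin, was below the filter at 0.848, 1.36 and 1.65 CPM on average in the double knockout, the Raptor knockout and wild type.

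Egfl7, a secreted endothelial matrix protein, read 14.2, 12.9, 13.5 and 17.4 CPM in the double knockout, 23.8, 26 and 21.1 in the Raptor knockout and 16.3, 18.9, 16.4 and 21.2 in wild type. All double-knockout libraries were below all Raptor-knockout libraries, and both groups overlapped wild type. The log2 fold change of the double knockout against the Raptor knockout was -0.70 (SE 0.18, adjusted p = 0.15), and -0.71 (adjusted p = 0.047) when wild-type replicate 4 was left out of the shared fit. It was -0.32 (SE 0.17, adjusted p = 0.17) for the double knockout and 0.38 (SE 0.17, adjusted p = 0.14) for the Raptor knockout against wild type.

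Of the transcription factors of endothelial identity, Erg, an ETS factor, averaged 3.54 ± 0.622 CPM in the double knockout, 3.77 ± 1.34 in the Raptor knockout and 3.18 ± 1.13 in wild type. Sox17, an arterial factor, averaged 6.42 ± 1.90, 4.29 ± 1.67 and 5.21 ± 1.09 CPM in the same order. Sox18 had at most 1.17 CPM in any library and no counts in 4 of the 11. The letters AGGAAG, a core bound by ETS factors, were searched in the RefSeq windows. At least 1 window held them in 10 of the 14 endothelial, 1 of the 4 angiogenic and 0 of the 6 mural genes that had one. This was so for 38.4% of all genes.

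Ly6c1 is a surface antigen of capillary endothelium that some leukocytes also carry. It was the only listed endothelial gene called against wild type by edgeR with all libraries, TMM scaling, the low-count filter and no covariate. It read 60.7, 100, 67.3 and 67.4 CPM in the double knockout, 59.0, 57.1 and 55.5 in the Raptor knockout and 50.6, 40.4, 51.5 and 54.6 in wild type. All knockout libraries were above all wild-type libraries, and double-knockout replicate 2 was far above the rest of its group. The log2 fold change was 0.58 (SE 0.16, adjusted p = 0.014), or 1.5-fold, in the double knockout and 0.21 (SE 0.18, adjusted p = 0.44) in the Raptor knockout. The direct difference between these knockouts was 0.37 (SE 0.18, adjusted p = 0.53). Without double-knockout replicate 2 the double-knockout value was 0.40 (adjusted p = 0.057), and with Xist as a covariate 0.52 (adjusted p = 0.070). Ly6c1 lies on chromosome 15 (75044018 to 75048830, minus strand), and its near-identical neighbour Ly6c2 had at most 0.541 CPM in any library.

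Of the genes of water transport and caveolae, Aqp1, the water channel of capillary endothelium, read 186, 247, 198 and 247 CPM in the double knockout, 166, 183 and 176 in the Raptor knockout and 140, 124, 158 and 330 in wild type. Here too wild-type replicate 4 stood above every other library, and the other 3 wild-type libraries below every knockout library. The log2 fold change in the double knockout was 0.22 (SE 0.26, adjusted p = 0.56) with all libraries and 0.64 (adjusted p = 0.00092) without that replicate. Cav1, the coat protein of caveolae, averaged 59.6 ± 12.6 CPM in the double knockout, 61.2 ± 4.77 in the Raptor knockout and 48.5 ± 4.04 in wild type. Its log2 fold changes of 0.30 (SE 0.15) and 0.34 (SE 0.16) had adjusted p of 0.17 in both comparisons. In the double knockout edgeR gave 0.50 (adjusted p = 0.047) with run as a covariate. With library totals edgeR gave 0.54 (adjusted p = 0.017), where the median of all tested genes was 0.25. Limma on log2 of TPM plus 1 or plus 0.1 gave 0.42 and 0.44 (adjusted p = 0.046 for both). The edgeR value was 0.15 (adjusted p = 0.51) without double-knockout replicate 2. It was -0.01 in libraries without Xist, where the double knockout has a single library. In the Raptor knockout Cav1 was called only with library totals (0.54, adjusted p = 0.033). Nos3, the endothelial nitric oxide synthase, averaged 6.05 ± 1.90 CPM in the double knockout, 6.53 ± 0.597 in the Raptor knockout and 5.0 ± 1.44 in wild type, with adjusted p of 0.46 and 0.37.

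Summed over the 18 tested endothelial genes, the double knockout held 535, 691, 546 and 631 CPM, the Raptor knockout 544, 571 and 522, and wild type 489, 438, 477 and 764. The highest and the lowest of all 11 sums were both wild-type libraries. Wild-type replicate 4 was the highest of its group for 14 of the 18 endothelial genes. Among the listed myofibre genes, it was the highest in wild type for Mb, the gene for myoglobin, at 1760 CPM against 457 to 1030. The same held for Myh2, the myosin of type 2A fibres, at 2492 CPM against 946 to 1540, and for Acta1 and Tnni2. It was the lowest in wild type for Ttn, at 11975 CPM against 22201 to 27145. Myh4, at 27526 CPM against 32521 to 36409, and Ckm, at 7370 CPM against 8670 to 10173, were also lowest there. Myh1, Myh7, Tnnt3 and Actn3 lay within the range of the other wild-type libraries. The part of these differences in the endothelial values was not tested. In the double knockout, replicate 2 was highest for 9 of the 18 endothelial and 4 of the 8 mural genes, and in the Raptor knockout, replicate 2 was highest for 11 of 18 and 5 of 8. The haemoglobin gene Hba-a2 read 3711 CPM in that Raptor-knockout library, against 835 and 1559 in the other 2, and its part was not tested either.

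**Figure D3:**
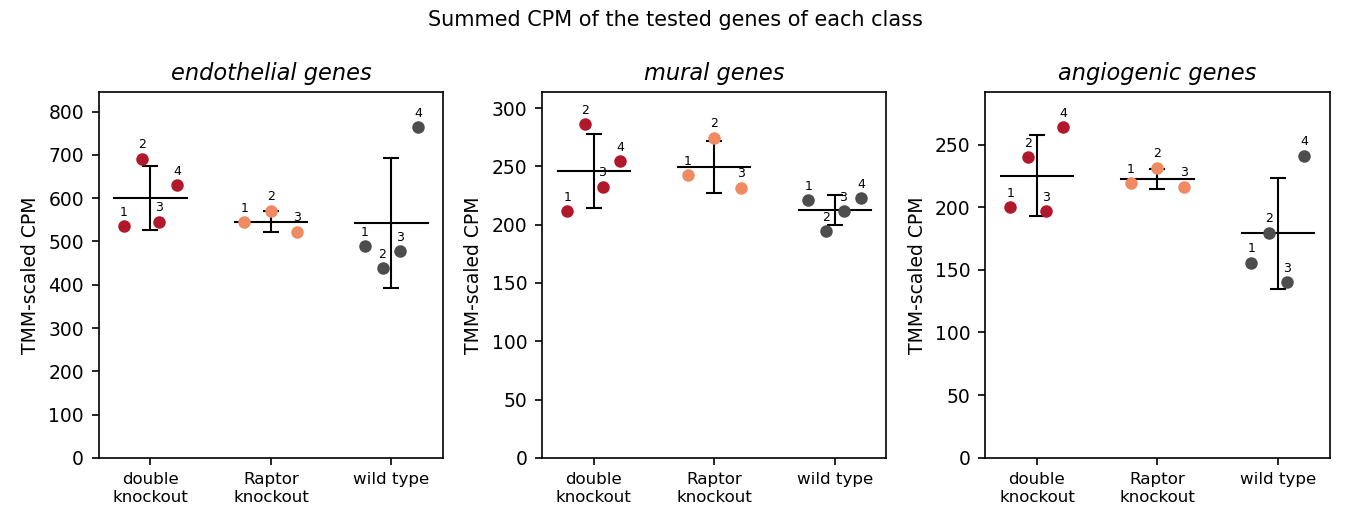
Summed TMM-scaled CPM of the tested genes of each class in every library, with replicate numbers, group mean and SD. The endothelial sum of wild-type replicate 4, at 764 CPM, lies above all knockout libraries, while the other 3 wild-type libraries, at 438 to 489 CPM, lie below them.

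**Figure D4:**
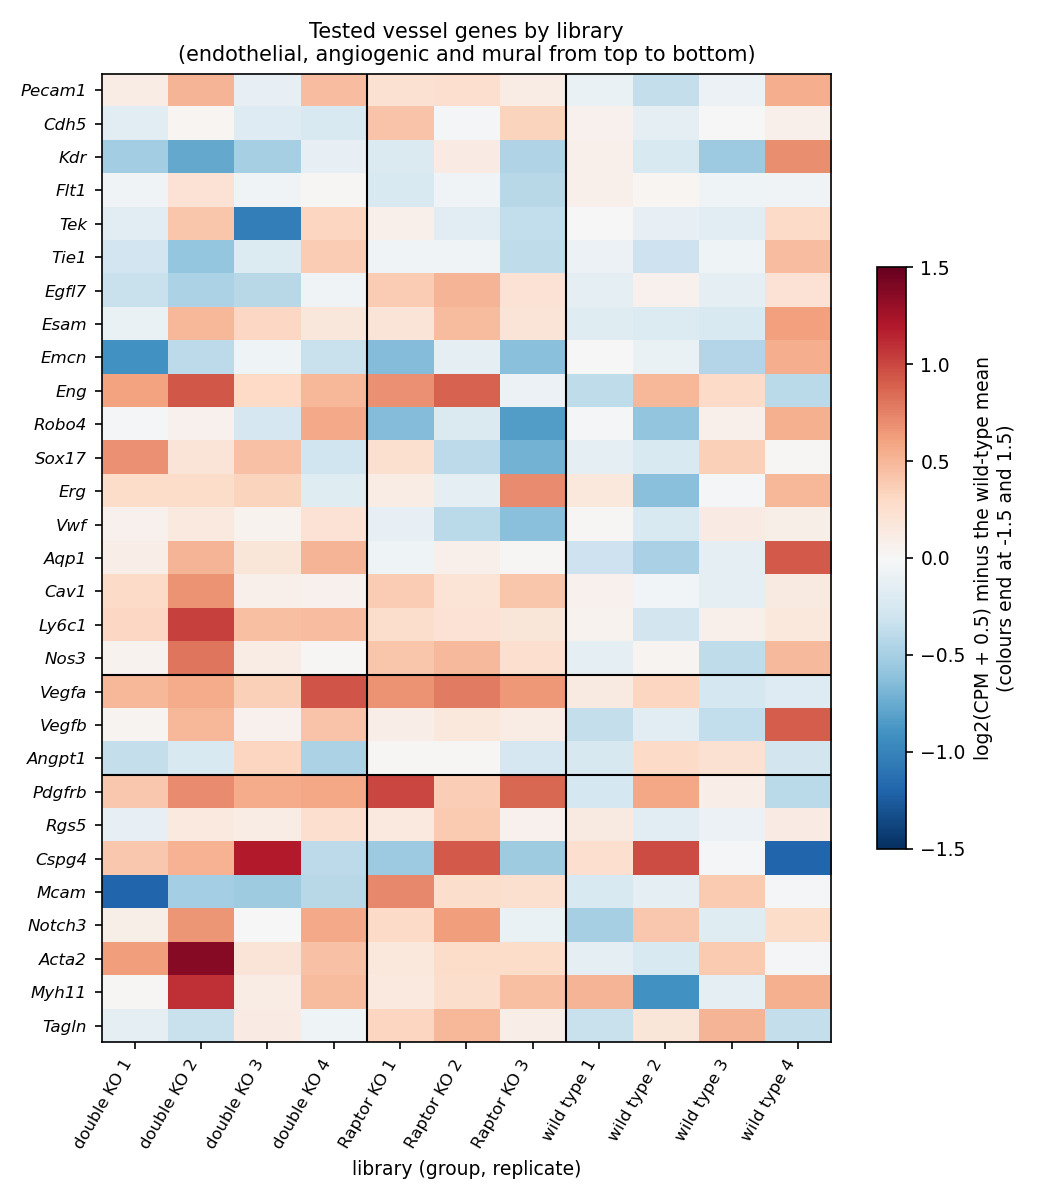
Each tested vessel gene in each library as log2(CPM + 0.5) minus the mean of the 4 wild-type libraries, red for higher and blue for lower. The wild-type replicate 4 column is red for most endothelial genes, the Vegfa row is red in all 7 knockout columns, and the Mcam row is blue in the 4 double-knockout columns.

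Among mural genes, Rgs5, a regulator of G-protein signalling and a pericyte marker, had the highest counts. It read 137, 166, 162 and 178 CPM in the double knockout, 166, 196 and 157 in the Raptor knockout and 164, 134, 141 and 163 in wild type, and the groups overlapped. Its interval against wild type was narrow, -0.18 to 0.36 in the double knockout and -0.09 to 0.49 in the Raptor knockout. Pdgfrb, the receptor through which PDGF-B recruits pericytes and which fibroblasts also carry, read 9.48, 11.9, 10.6 and 10.8 CPM in the double knockout, 14.6, 9.20 and 13.2 in the Raptor knockout and 5.75, 10.7, 7.57 and 5.18 in wild type. Wild-type replicate 2 reached into the range of both knockouts. Pdgfrb rose in the Raptor knockout, with a log2 fold change of 0.79 (SE 0.25, adjusted p = 0.039), or 1.72-fold. In the double knockout the value was 0.58 (SE 0.24, adjusted p = 0.084). The Raptor-knockout call held in 7 of 22 alternative settings, with adjusted p from 0.012 to 0.19, and was lost when wild-type replicate 1, 3 or 4, Raptor-knockout replicate 1 or 3, or double-knockout replicate 1, 3 or 4 was left out.

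Mcam, which encodes the adhesion molecule CD146 of pericytes, smooth muscle and endothelium, was the vessel gene that fell. It read 2.84, 4.85, 4.77 and 5.23 CPM in the double knockout, 12.1, 8.66 and 8.51 in the Raptor knockout and 5.98, 6.44, 9.54 and 6.99 in wild type. Every double-knockout library was below every library of the other groups. The log2 fold change was -0.72 (SE 0.26, adjusted p = 0.047) in the double knockout and 0.41 (SE 0.25, adjusted p = 0.28) in the Raptor knockout against wild type, and -1.13 (SE 0.27, adjusted p = 0.14) between the knockouts. The call against wild type held in 2 of 22 alternative settings, with adjusted p from 0.043 to 0.75, and the direction was the same in all of them. Mcam lies on chromosome 9 (44134469 to 44142727, plus strand). Its RefSeq window, chr9:44134408-44134707 on the plus strand of GRCm38.p6, is shown for comparison with that of Vegfa, since it is rich in the same GC box, with 5 copies counting both strands (capitals).
Mcam: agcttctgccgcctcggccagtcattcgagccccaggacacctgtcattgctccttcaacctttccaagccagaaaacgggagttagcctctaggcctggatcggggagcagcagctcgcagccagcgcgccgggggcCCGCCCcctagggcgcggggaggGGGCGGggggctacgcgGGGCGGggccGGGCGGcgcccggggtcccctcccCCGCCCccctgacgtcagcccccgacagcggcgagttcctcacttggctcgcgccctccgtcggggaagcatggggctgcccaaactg
The GC content of the window is 72.7%, against 62% in that of Vegfa.

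Cspg4, the pericyte proteoglycan NG2, averaged 4.89 ± 2.32 CPM in the double knockout, 3.53 ± 2.57 in the Raptor knockout and 3.74 ± 2.35 in wild type. Its interval in the double knockout was wide, from -0.59 to 1.54. Notch3, the receptor that keeps arterial smooth muscle differentiated, averaged 6.23 ± 1.54 CPM in the double knockout, 5.96 ± 1.59 in the Raptor knockout and 4.91 ± 1.5 in wild type, with log2 fold changes of 0.38 (SE 0.28) and 0.31 (SE 0.31), neither of them called.

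Of the contractile genes of smooth muscle, Acta2, the gene for smooth muscle alpha-actin, rose in the double knockout. It read 43.0, 72.2, 31.5 and 37.8 CPM in the double knockout, 30.8, 33.6 and 33.5 in the Raptor knockout and 25.1, 23.6, 36.3 and 27.0 in wild type. Double-knockout replicate 2 was the highest library, and replicate 3 fell below wild-type replicate 3. The log2 fold change was 0.71 (SE 0.22, adjusted p = 0.027), or 1.63-fold, in the double knockout and 0.21 (SE 0.24, adjusted p = 0.60) in the Raptor knockout. Without double-knockout replicate 2 it was 0.41 (adjusted p = 0.12), and without wild-type replicates 1, 2 or 4 it was 0.67, 0.65 and 0.69 with adjusted p of 0.070, 0.073 and 0.062. With Xist as a covariate it was 0.50 (adjusted p = 0.15), and in libraries without Xist, with 1 double-knockout library, 0.56 (adjusted p = 0.27). The related skeletal actin gene Acta1, far more abundant in muscle, averaged 38153.5 CPM in the double knockout, 36238 in the Raptor knockout and 25427 in wild type, and how reads shared by these actins were split was not tested.

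Acta2 lies on chromosome 19 (34241090 to 34255590, minus strand). The bases around its RefSeq start site are chr19:34255324-34255623 on the minus strand of GRCm38.p6. They are shown because they hold 2 copies (capitals) of a CArG-like box, the element bound by serum response factor in smooth muscle genes. This form of the box has at most 1 G or C among its middle letters. Both copies lie upstream of the RefSeq start site. The gene span given above begins further upstream, so both copies also lie within that span.
Acta2: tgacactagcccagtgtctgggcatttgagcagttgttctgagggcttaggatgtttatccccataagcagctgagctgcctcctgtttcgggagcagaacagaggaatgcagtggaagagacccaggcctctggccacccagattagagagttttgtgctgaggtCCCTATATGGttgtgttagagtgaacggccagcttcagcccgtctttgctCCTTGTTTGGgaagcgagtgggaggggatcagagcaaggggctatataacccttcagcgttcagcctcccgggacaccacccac
The looser form of the box, which includes the strict form, was searched after the strict form gave no match in any vessel gene. It was found in 2 of the 6 mural, 5 of the 14 endothelial and 1 of the 4 angiogenic genes with a window. Together these were 8 of the 24 vessel genes with a window, beside 15.3% of all genes.

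The other smooth muscle genes were not called. Myh11, smooth muscle myosin heavy chain, averaged 11.2 ± 4.27 CPM in the double knockout, 9.68 ± 1.09 in the Raptor knockout and 8.44 ± 3.63 in wild type, and double-knockout replicate 2 was again the highest at 17.2 CPM. Tagln, the actin-binding transgelin, averaged 1.98 ± 0.320, 2.81 ± 0.450 and 2.25 ± 0.817 CPM in the double knockout, the Raptor knockout and wild type. Cnn1, calponin, was below the filter at 0.998, 0.916 and 0.456 CPM on average in the same order. The mural sums were 212, 286, 232 and 255 CPM in the double knockout, 243, 275 and 232 in the Raptor knockout and 221, 195, 212 and 223 in wild type.

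The double knockout and the Raptor knockout were compared directly, as the study's design text names this contrast. No tested vessel gene was called by edgeR with all libraries and the filter on low counts, or by DESeq2, where 0.0286% and 0.942% of all tested genes were called. With no filter edgeR called Mcam (-1.12, adjusted p = 0.048), and without wild-type replicate 4 it called Egfl7 (-0.71, adjusted p = 0.047). Over all genes these settings called 44 higher and 61 lower of 21981, and 27 higher and 70 lower of 10443. At an unadjusted p under 0.05 there were 5 vessel genes of 29, against 9.49% of all tested genes: Egfl7, Mcam and Cdh5 lower and Robo4 and Vwf higher in the double knockout. The libraries of the 2 knockouts did not overlap for 5 of the 29 tested vessel genes, which was so for 12.2% of all tested genes: Egfl7 and Mcam were below, and Vwf, Aqp1 and Ly6c1 above. Cdh5 differed by -0.41 (SE 0.17) on the log2 scale, Robo4 by 0.74 (SE 0.34) and Vwf by 0.52 (SE 0.22), with adjusted p of 0.44, 0.51 and 0.44. Xist was present in double-knockout replicates 1 to 3 and in no Raptor-knockout library. The smaller run held only double-knockout replicates 3 and 4. With Xist as a covariate edgeR gave -0.51 for Egfl7 (adjusted p = 0.78) and -1.29 for Mcam (adjusted p = 0.62). The same fit gave 0.51 for Vwf, 0.53 for Aqp1 and 0.27 for Ly6c1, none of them called.

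Further genes of the same pathways were taken from lists of vessel cell types and pathways. Beside the list counts from here on, 13% of all tested genes were called higher and 13.7% lower in the double knockout. In the Raptor knockout these shares were 8.73% and 9.43%. Of 27 tested further endothelial genes, 3 were called in the double knockout and 1 in the Raptor knockout, all higher. Plvap, the diaphragm protein of fenestrated and activated capillaries, read 14.9, 16.4, 13.0 and 20.1 CPM in the double knockout, 15.4, 17.1 and 12.9 in the Raptor knockout and 6.90, 4.65, 7.40 and 9.47 in wild type. All knockout libraries were above all wild-type libraries, at a log2 fold change of 1.15 (SE 0.22, adjusted p = 0.00094) in the double knockout and 1.06 (SE 0.23, adjusted p = 0.0043) in the Raptor knockout. The other 2 genes called in the double knockout, Ly6a (46.4 against 30.3 CPM in wild type) and Cd34 (46.1 against 30.4 CPM), are also in the fibroblast list used here. In the Raptor knockout Ly6a read 40.5, 33.6 and 37.9 CPM and Cd34 45.1, 37.6 and 56.9 CPM, neither of them called. The median log2 fold change of the list was 0.14 in the double knockout and -0.05 in the Raptor knockout.

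Of 11 tested arterial and Notch genes, 1 was called, the Notch ligand Jag2, at 14.4 ± 0.789 CPM in the double knockout, 15.7 ± 3.39 in the Raptor knockout and 9.08 ± 2.18 in wild type (adjusted p = 0.023 and 0.018). Of 6 tested venous and activated endothelial genes, 1 was called higher and 1 lower in each knockout. Icam1, the leukocyte adhesion molecule of activated endothelium, averaged 5.34 ± 0.585 CPM in the double knockout, 8.26 ± 4.16 in the Raptor knockout and 2.49 ± 0.716 in wild type (adjusted p = 0.031 and 0.0032). Nr2f2, the venous transcription factor COUP-TFII, which other cell types also use, averaged 28.7 ± 4.37 CPM in the double knockout, 24.2 ± 7.64 in the Raptor knockout and 44.0 ± 7.66 in wild type (adjusted p = 0.027 and 0.010).

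Of 4 tested lymphatic endothelial genes, 2 were called higher in the double knockout and 1 in the Raptor knockout. Lyve1, a hyaluronan receptor that resident macrophages also carry, averaged 38.7 ± 8.27 CPM in the double knockout, 13.4 ± 5.15 in the Raptor knockout and 18.6 ± 7.29 in wild type, and was called in the double knockout (adjusted p = 0.015). Prox1, the lymphatic identity factor that myofibres also express, averaged 9.46 ± 4.09 CPM in the double knockout and 3.96 ± 0.478 in wild type (adjusted p = 0.0098). It read 5.13, 11.6 and 5.87 CPM in the Raptor knockout, where it was not called. Pdpn, podoplanin, averaged 9.05 ± 1.2 CPM in the Raptor knockout and 4.59 ± 1.04 in wild type (adjusted p = 0.011). In the double knockout Pdpn read 5.69, 5.66, 6.89 and 5.52 CPM and was not called.

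Of 19 tested other angiogenic factors, inhibitors and tip cell genes, 4 were called in the double knockout and 3 in the Raptor knockout, all higher. Fgf1, a fibroblast growth factor, averaged 19.6 ± 1.70 CPM in the double knockout, 16.1 ± 3.03 in the Raptor knockout and 8.93 ± 2.63 in wild type (adjusted p = 0.00068 and 0.015). Angptl2, a secreted angiopoietin-like protein, averaged 37.7 ± 3.86, 34.2 ± 1.49 and 20.7 ± 5.36 CPM in the same order (adjusted p = 0.0020 and 0.016). Pdgfb, the ligand of Pdgfrb, read 12.3, 11.6, 10.1 and 14.2 CPM in the double knockout, 23.3, 21.4 and 31.4 in the Raptor knockout and 14.5, 15.7, 15.6 and 8.11 in wild type, and was called higher in the Raptor knockout (0.91, SE 0.23, adjusted p = 0.0099). The angiogenesis inhibitors Adamts1 (47.1 ± 7.86 CPM in the double knockout and 32.2 ± 5.31 in wild type, adjusted p = 0.020) and Thbs1 (5.86 ± 1.88 and 2.42 ± 1.51 CPM, adjusted p = 0.038) were called higher in the double knockout. In the Raptor knockout neither was called. Adamts1 read 23.6, 27.9 and 25.2 CPM there, below every wild-type library, and Thbs1 4.36, 4.87 and 2.05 CPM.

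Among 13 tested hypoxia genes and regulators of Vegfa, 1 was called higher and 4 lower in the double knockout, and 1 higher and 1 lower in the Raptor knockout. Egln1, the prolyl hydroxylase PHD2 that marks HIF-alpha subunits for degradation, averaged 60.2 ± 5.12 CPM in the double knockout, 80.4 ± 1.56 in the Raptor knockout and 156 ± 17.5 in wild type. Its log2 fold change was -1.37 (SE 0.13, adjusted p = 1.6e-06) and -0.96 (SE 0.14, adjusted p = 0.00017). Egln3, the related hydroxylase PHD3, averaged 58.7 ± 8.99 CPM in the double knockout, 54.7 ± 3.15 in the Raptor knockout and 22.2 ± 6.73 in wild type, at log2 fold changes of 1.40 (SE 0.19, adjusted p = 5.0e-05) and 1.29 (SE 0.20, adjusted p = 0.00033). Ppargc1a, the coactivator PGC-1alpha, fell to 24.5 ± 9.52 CPM in the double knockout, against 45.8 ± 1.01 in wild type (adjusted p = 0.017). Its Raptor-knockout libraries, at 22.3, 40.3 and 21.1 CPM, were also below every wild-type library, though it was not called there. Pdk1 and Slc2a1, a mitochondrial kinase and a glucose transporter, were 19.7 ± 3.44 and 3.66 ± 1.0 CPM in the double knockout, against 29.7 ± 1.89 and 6.71 ± 1.85 CPM in wild type (adjusted p = 0.010 and 0.031). In the Raptor knockout Pdk1 read 24.6, 22.7 and 27.3 CPM and Slc2a1 4.87, 4.87 and 5.87 CPM, neither of them called.

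**Figure D5:**
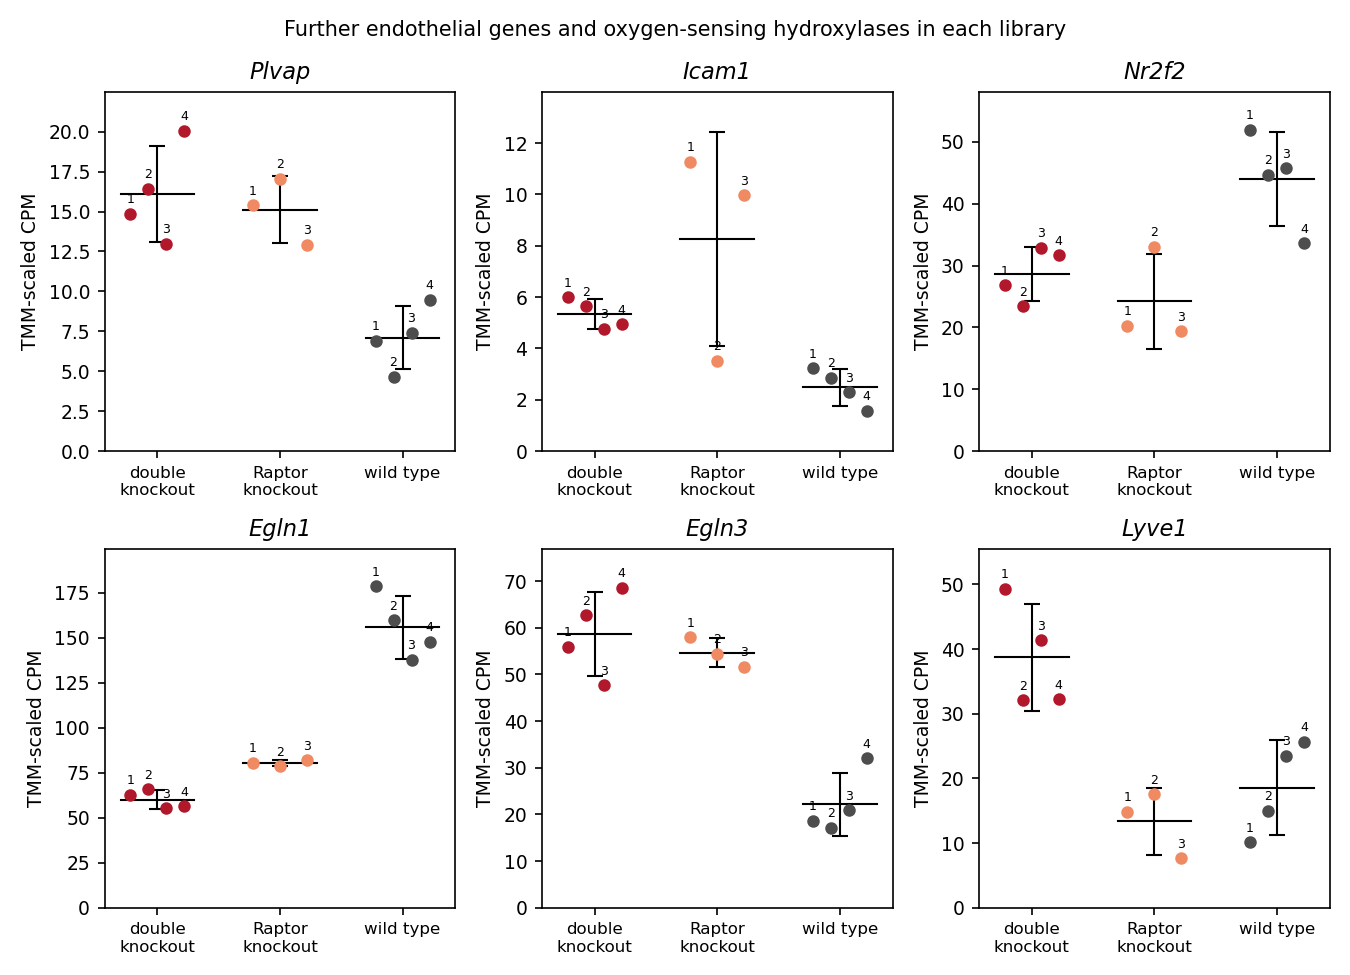
TMM-scaled CPM in each library of Plvap, Icam1, Nr2f2, Lyve1 and the hydroxylase genes Egln1 and Egln3, with replicate numbers, group mean and SD. Egln1 lies at 55.4 to 81.9 CPM in all knockout libraries and at 138 to 179 CPM in wild type, and Plvap and Egln3 lie higher in every knockout library than in every wild-type library.

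Of 13 tested further pericyte and smooth muscle genes, 4 were called higher and 2 lower in the double knockout, and 3 higher and 1 lower in the Raptor knockout. The members that rose in both, Des (desmin), Tpm2 (beta-tropomyosin) and Pln (phospholamban), are also genes of myofibres. Tpm2 averaged 3029 ± 273 CPM in the double knockout, 3014 ± 38.6 in the Raptor knockout and 1661 ± 311 in wild type, and Des averaged 3682 ± 90, 3545 ± 183 and 2566 ± 197 CPM in the same order. Synpo2, an actin-binding protein of smooth and skeletal muscle, fell to 147.7 ± 3.62 CPM in the double knockout, against 193 ± 24.1 in wild type (adjusted p = 0.020). It read 174, 168 and 177 CPM in the Raptor knockout, where it was not called. Abcc9, the subunit of the pericyte potassium channel that muscle fibres also carry, averaged 75.4 ± 5.95 CPM in the double knockout, 72.7 ± 8.94 in the Raptor knockout and 112 ± 7.08 in wild type (adjusted p = 0.0029 and 0.0045). Anpep, an aminopeptidase of pericytes and other cells, averaged 6.62 ± 2.32 CPM in the double knockout and 2.91 ± 0.930 in wild type (adjusted p = 0.013). It read 4.61, 4.87 and 6.46 CPM in the Raptor knockout, where it was not called.

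Macrophage, fibroblast and tenocyte markers rose in part in both knockouts, and their part in the vessel values was not tested. Beside the counts below, 13% of all tested genes were called higher in the double knockout and 8.73% in the Raptor knockout. Of 12 tested macrophage and leukocyte markers, 6 were called higher in the double knockout and 4 in the Raptor knockout. Their sum per library was 168 to 240 CPM in the double knockout, 119 to 244 in the Raptor knockout and 82.6 to 155 in wild type, with 1 to 2 of the 16 listed genes at 0 in a whole group. Of 12 fibroblast markers, 9 were called higher in the double knockout and 4 in the Raptor knockout, at sums of 2048 to 2289, 1831 to 1945 and 1058 to 1699 CPM in the double knockout, the Raptor knockout and wild type. Of 4 tested tenocyte markers, 3 were higher in each knockout, and of 5 tested Schwann cell markers, 1 (Ncam1) was higher in each. The 5 tested adipocyte markers had adjusted p of at least 0.081 in both knockouts against wild type, and the most abundant were Cfd at 179.5 CPM in the double knockout and 100.3 in wild type and Adipoq at 24.9 and 14.3 CPM. Of 6 tested red cell and platelet markers, 1 (Hbb-bt) was called, higher in the Raptor knockout. It read 137, 560 and 284 CPM there and 175, 88.3, 136 and 144 CPM in wild type. Raptor-knockout replicate 1 thus lay within the wild-type range. Of 11 myofibre markers, 3 were higher and 4 lower in each knockout.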

How the data were processed

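Expected counts per gene were deposited by the authors in 2 tables, and the submitters' processing notes name RSEM 1.3.3, STAR 2.7.0, fastp 0.20.0 and the build GRCm38 (mm10). A deposited table by the authors also gives TPM, used only in alternatives. The sources used here give neither strand setting nor annotation release; positions are from GENCODE M21. Left out were 6 columns that no sample label matches.

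Counts were rounded. Tests used edgeR 4.0.16 (R 4.3.3) with its filterByExpr by group, TMM scaling, 1 robust quasi-likelihood fit of 11 libraries in 3 groups, two-sided F tests, and Benjamini-Hochberg adjustment over 10505 genes. The SE of a log2 fold change is its size over the square root of F. Nothing in the labels says more of the mice than 1 library each, so p-values measure the spread between libraries. No library pair agreed within sampling noise. The steps were tested on simulated data.

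Members and lists were chosen with earlier results of these data known. Every member is described, those called and the 2 per class with the highest mean CPM in every library. From the other lists up to 4 called genes per comparison are named, or the 2 with the highest mean CPM where none was called. Slc2a1, Synpo2 and Anpep were named beyond this after their values were seen. Hba-a2 and the named genes of the myofibre list were outside this rule too. Called genes of the macrophage, fibroblast and tenocyte lists are counted there and not named. Alternatives were other scaling, no filter, fewer groups, run, Xist, DESeq2 1.42.0, limma 3.58.1 on log2(TPM + 1) or log2(TPM + 0.1), and leaving out each library. Promoter windows are RefSeq's.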

Additional observations from a re-analysis of the deposited data

Results flagged for a closer look

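Of 58 groups of 4 libraries of the tested vessel genes, 6 had a library far from the others of its group. For a single group chance gives about 1 in 20. The genes share the same libraries and are not independent, so the 6 cannot be tested against that rate. Wild-type replicate 4 was the high library for 3 genes: Esam at 35.6 CPM, with its group's other libraries at 19.7 to 20.3, Aqp1 at 330 CPM against 124 to 158, and Vegfb at 173 CPM against 71.1 to 81.5. Double-knockout replicate 2 was the high library for Ly6c1, at 100.2 CPM against 60.7 to 67.4, and for Nos3, at 8.89 CPM against 4.94 to 5.30. Double-knockout replicate 4 was the low library for Erg, at 2.62 CPM against 3.77 to 3.98. The Raptor knockout, with 3 libraries, was not examined this way.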

How the results depend on the processing

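Of the vessel genes, 4 were called in the double knockout and 2 in the Raptor knockout against wild type, and 0 between the knockouts. Without the smaller run these became 2, 1 and 0. With Xist as a covariate they were 1, 1 and 0, and in libraries without Xist 0, 0 and 0, where the double knockout is 1 library assumed to vary like the other groups. With library totals the Raptor-knockout count was 5 and the double-knockout count 6, with only the groups compared the Raptor-knockout count was 1, and with no filter 1 gene, Mcam, was called between the knockouts. Leaving out each library gave 1 to 7 calls in the double knockout, 1 to 3 in the Raptor knockout and 0 to 1 between them. The 7 came without wild-type replicate 4 (Pecam1, Esam, Aqp1, Ly6c1, Vegfa and Vegfb higher, Mcam lower), the 1 without double-knockout replicate 2 (Vegfa), and the 1 between the knockouts without wild-type replicate 4 (Egfl7 lower). Calls over all 10443 genes tested without wild-type replicate 4 rose too. They were 1655 higher and 1689 lower in the double knockout, against 1367 and 1435 of 10505 with all libraries. Between the knockouts they were 27 higher and 70 lower, against 1 and 2. The cause of these shifts was not tested. Of 22 alternatives, Vegfa was called in 19 in the double knockout (log2 fold change 0.47 to 0.83) and in 21 in the Raptor knockout (0.57 to 0.90), Ly6c1 in 19, Acta2 in 16, Pdgfrb in 7 and Mcam in 2, and no called gene changed direction. Library totals moved the median of all tested genes to 0.25 in the double knockout and 0.20 in the Raptor knockout, and the higher and lower calls to 2421 and 844 in the double knockout, against 1367 and 1435 with TMM, and to 1638 and 573 in the Raptor knockout, against 917 and 991. With TPM the double-knockout split was 1776 and 785. Genes under about 10 CPM rest on few counts per library. No paired analysis was made because the labels give no pairing of mice between the groups.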
